A study of Mus musculus with 8 samples.

Results

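The homeostatic astrocyte genes described here are 10 genes of resting astrocytes: Slc1a2, Slc1a3, Glul, Aqp4, Kcnj10, Gja1, Gjb6, Ntsr2, Aldh1l1 and S100b. They were chosen by name, though with earlier results of these data known, from 24883 gene rows of the deposited expression table. Each had 1 row. RNA had been sequenced from the visual cortex of adult C57BL/6J mice, which received an LNA oligonucleotide (locked nucleic acid, which binds and blocks a complementary microRNA) by intracortical injection on postnatal day 122 and were sampled 7 days later, on postnatal day 129. A scrambled sequence was injected for the 4 scrambled samples, and a sequence complementary to miR-29a for the 4 anti-miR-29a samples. Both groups therefore share the injection, and no uninjected cortex was analysed here. The labels do not say whether each sample was a separate animal, so the p-values below measure only sample-to-sample spread, part of which may be technical.

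Astrocytes take up the glutamate that neurons release, chiefly through the transporters GLT-1 and GLAST, and convert it to glutamine. They also clear potassium through inwardly rectifying channels, move water through aquaporin-4 at the endfeet around vessels, and are joined to each other by gap junctions of connexins 43 and 30. Injury of the cortex is known to turn resting astrocytes into reactive ones, which raise filament genes such as Gfap.

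Over all tested rows, Pearson correlations of log2 values between libraries were 0.932 to 0.963 within the groups and 0.931 to 0.957 between them, so libraries of one group were about as unlike as libraries of different groups.

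FPKM is a fragment count scaled to transcript length and to library size, and the library scaling used for this table is not stated. All 10 genes were well above the filter in every library, at 12.6 to 599.7 FPKM, and all 10 were tested. None differed between the groups after adjustment over all 13912 tested rows (limma, threshold 0.05; 0.0144% of all tested rows passed). At an unadjusted p under 0.05 limma counted 2 of the 10 higher and 0 lower, Ntsr2 and Gja1, where 7.54% of all tested rows were higher and 3.18% lower. Ntsr2 was the 1 gene whose groups of libraries did not overlap, with 4 of 4 anti-miR-29a libraries above all scrambled ones (4.02% of all tested rows). The glutamate transporter genes Slc1a2 and Slc1a3 had log2 differences of -0.0016 and -0.0040, with 95% intervals that lay between -0.17 and 0.16.

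miR-29a is shown first because it is the molecule that was blocked, with its seed (bases 2 to 8) in capitals, followed by the matches to that seed in the 3' UTR of Slc1a2. The miRNA sequence is from RefSeq (GRCm38.p6, chr6:31062673-31062694, minus strand). The windows are from GENCODE M21 transcripts on the same assembly as mm10, in DNA letters on the plus strand, with the 7-base match in capitals.
mmu-miR-29a-3p: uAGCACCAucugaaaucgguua
Slc1a2 match to bases 2 to 8, chr2:102788461-102788490: gcatcaaggaaTGGTGCTgactgctgtttc
Slc1a2 match to bases 2 to 7 and an A, chr2:102788548-102788577: gaataaaggccGGTGCTAatagcgggaccg
The longest 3' UTR annotated for each of the 10 genes was searched on the transcript strand for TGGTGCT, the complement of the seed, and for GGTGCTA, counted where no T precedes it so that the sets do not overlap. TGGTGCT was found in Slc1a2 alone, at base 6938 of a 3' UTR of 9250 nt, and is present in 13.5% of the 20109 symbols of the table with an annotated 3' UTR. GGTGCTA was found in Slc1a2 at base 7025 and in Aqp4 at base 1587 of 3955 nt, and is present in 4.2% of these symbols. The other 8 genes held neither string in 3' UTRs of 317 to 4025 nt. A match is a description of the sequence, and the absence of one says only that these letters are not in that window.

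**Figure D1:**
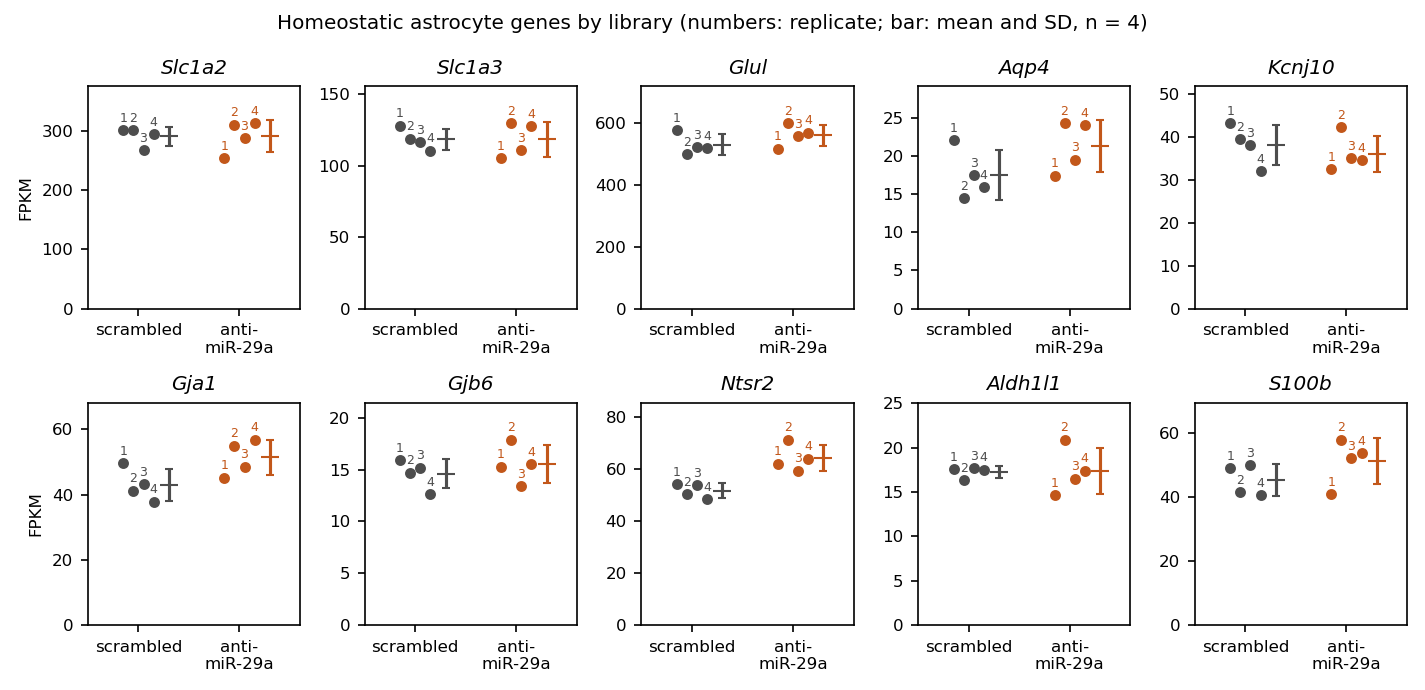
FPKM of each homeostatic astrocyte gene (linear axes from 0) in the 4 scrambled and 4 anti-miR-29a libraries; points are libraries labelled with their replicate number, and bars give the mean and SD. Ntsr2 is the one gene in which all anti-miR-29a libraries (59.4 to 71.3 FPKM) lie above all scrambled ones (48.3 to 54.1 FPKM).

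Glutamate uptake and its conversion to glutamine were covered by 3 of the genes, and none of them passed the test. Slc1a2 (chr2:102658659-102790784, plus strand, mm10) encodes GLT-1, the main glutamate transporter of cortical astrocytes. It read 301.9, 302.0, 268.0 and 295.5 FPKM in scrambled replicates 1 to 4 and 254.3, 311.5, 288.9 and 314.1 FPKM in anti-miR-29a replicates 1 to 4. The scrambled values lie inside the range of the anti-miR-29a values, which held both the lowest and the highest library. The means were 291.8 ± 16.2 and 292.2 ± 27.7 FPKM (SD, n = 4 per group), a log2 difference of -0.0016 with a 95% interval of -0.16 to 0.15 (limma, adjusted p = 0.996). Slc1a3 (chr15:8634124-8710764, minus strand) encodes GLAST, the other astrocyte glutamate transporter. Its scrambled libraries read 128.0, 118.9, 116.5 and 110.3 FPKM and its anti-miR-29a libraries 105.3, 129.7, 110.8 and 127.7 FPKM. Both groups had a mean of 118.4 FPKM, with SDs of 7.38 and 12.2, and the 95% interval of the log2 difference was -0.17 to 0.16 (limma, adjusted p = 0.99).

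Glul (chr1:153899944-153909723, plus strand) encodes glutamine synthetase, which makes glutamine from glutamate, and was the most abundant of the 10. It read 577.5, 498.5, 522.8 and 519.3 FPKM in the scrambled and 516.6, 599.7, 557.4 and 568.9 FPKM in the anti-miR-29a libraries. Scrambled replicate 1 was higher than 3 of the 4 anti-miR-29a libraries, so the groups overlapped. The means were 529.5 ± 33.7 and 560.7 ± 34.4 FPKM, a log2 difference of 0.08 (95% interval -0.04 to 0.21; limma, adjusted p = 0.639), which was -0.032 under quantile normalization and 0.049 to 0.13 with 1 library left out. Reads of Glul cannot be told apart by strand from those of Teddm2 on the opposite strand, whose row held 0.303 to 1.25 FPKM.

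The water and potassium channel genes of the endfeet had differences of opposite sign, and neither passed. Aqp4 (chr18:15389496-15410982, minus strand) encodes aquaporin-4, the water channel of the endfeet. It read 22.1, 14.5, 17.5 and 15.9 FPKM in the scrambled and 17.4, 24.3, 19.5 and 24.0 FPKM in the anti-miR-29a libraries. Scrambled replicates 1 and 3 lay within the anti-miR-29a range, and anti-miR-29a replicates 1 and 3 lay within the scrambled range. The means were 17.5 ± 3.30 and 21.3 ± 3.39 FPKM, a log2 difference of 0.29 (95% interval -0.03 to 0.61; limma, adjusted p = 0.502; exact two-sided permutation p = 0.171). Without scrambled replicate 2 the difference was 0.20 and without scrambled replicate 1 it was 0.41. It was 0.22 without anti-miR-29a replicate 2 and 0.38 without anti-miR-29a replicate 1. The size of the Aqp4 difference thus depends on single libraries of both groups.

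Kcnj10 (chr1:172341210-172374085, plus strand) encodes Kir4.1, a potassium channel that astrocytes express. It read 43.2, 39.4, 38.1 and 32.0 FPKM in the scrambled and 32.4, 42.2, 35.0 and 34.6 FPKM in the anti-miR-29a libraries. Of the anti-miR-29a libraries only replicate 2 exceeded the control mean. The means were 38.2 ± 4.63 and 36.1 ± 4.25 FPKM, a log2 difference of -0.08 (95% interval -0.31 to 0.15; limma, adjusted p = 0.811). Leaving out scrambled replicate 1 gave -0.019, and leaving out scrambled replicate 4 gave -0.16. The difference in Kcnj10 was negative in all 18 alternative settings and that of Aqp4 positive in all 18.

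The gap junction genes of astrocytes are those of connexins 43 and 30, and neither passed. Gja1 (chr10:56377330-56402513, plus strand) encodes connexin 43. It read 49.7, 41.2, 43.3 and 37.8 FPKM in the scrambled and 45.2, 55.0, 48.6 and 56.9 FPKM in the anti-miR-29a libraries. All 4 anti-miR-29a libraries were above the control mean, but scrambled replicate 1 was above replicates 1 and 3 of the other group. The means were 43.0 ± 5.01 and 51.4 ± 5.46 FPKM, a log2 difference of 0.26 with a standard error of 0.0965 (95% interval 0.04 to 0.47; limma, unadjusted p = 0.0229, adjusted p = 0.385; exact permutation p = 0.0857). Gjb6 (chr14:57123303-57133611, minus strand) encodes connexin 30. Its values were 15.9, 14.7, 15.2 and 12.6 FPKM in the scrambled and 15.3, 17.9, 13.4 and 15.5 FPKM in the anti-miR-29a libraries, with the groups intermixed. The means were 14.6 ± 1.43 and 15.5 ± 1.85 FPKM, a log2 difference of 0.08 (95% interval -0.14 to 0.31; limma, adjusted p = 0.801). This Gjb6 difference was 0.014 without anti-miR-29a replicate 2, 0.016 without scrambled replicate 4 and 0.15 without anti-miR-29a replicate 3.

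The other 3 genes are markers with separate roles. Ntsr2 (chr12:16653382-16660227, plus strand) encodes neurotensin receptor 2, a receptor that marks cortical astrocytes. It read 54.1, 50.3, 53.8 and 48.3 FPKM in the scrambled and 62.1, 71.3, 59.4 and 64.0 FPKM in the anti-miR-29a libraries. The lowest anti-miR-29a library was above the highest scrambled one. The means were 51.6 ± 2.80 and 64.2 ± 5.09 FPKM, a log2 difference of 0.31 with a standard error of 0.0657 (95% interval 0.17 to 0.46), or 1.24-fold. This was the 53rd smallest p of the 13912 tested rows and did not pass (limma, unadjusted p = 0.000789, adjusted p = 0.2; exact two-sided permutation p = 0.0286, the lowest possible with 70 relabellings). The Ntsr2 difference was 0.23 to 0.35 over the 18 alternatives, with adjusted p of 0.136 to 0.412, and 0.26 to 0.35 with 1 library left out. In bulk tissue, fewer or more astrocytes and less or more RNA per astrocyte cannot be told apart, for Ntsr2 or any other gene of the 10.

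Aldh1l1 (chr6:90486427-90600203, plus strand) encodes a folate enzyme that is used as a marker of all astrocytes. It read 17.6, 16.3, 17.7 and 17.5 FPKM in the scrambled and 14.6, 20.9, 16.5 and 17.4 FPKM in the anti-miR-29a libraries. The anti-miR-29a libraries were spread to both sides of the scrambled ones, with SDs of 2.65 and 0.676 FPKM around means of 17.4 and 17.3, and the 95% interval of the log2 difference was -0.23 to 0.22 (limma, adjusted p = 0.992). S100b (chr10:76253853-76261159, plus strand) encodes a calcium-binding protein of astrocytes that some oligodendrocytes also make. Its values were 48.8, 41.4, 49.9 and 40.4 FPKM in the scrambled and 40.8, 57.8, 52.1 and 53.6 FPKM in the anti-miR-29a libraries. In S100b, 3 anti-miR-29a libraries were above all scrambled ones and replicate 1 was not. The means were 45.1 ± 4.93 and 51.1 ± 7.24 FPKM, a log2 difference of 0.17 (95% interval -0.08 to 0.42; limma, adjusted p = 0.617). Without anti-miR-29a replicate 1 the S100b difference was 0.28 (limma, unadjusted p = 0.0122), and without replicate 2 of that group it was 0.11. S100b overlaps Dip2a on the opposite strand, at 7.08 to 9.86 FPKM, and the library kit does not mark strand. The annotation also places antisense noncoding genes within Aqp4, Slc1a2 and Aldh1l1.

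**Figure D2:**
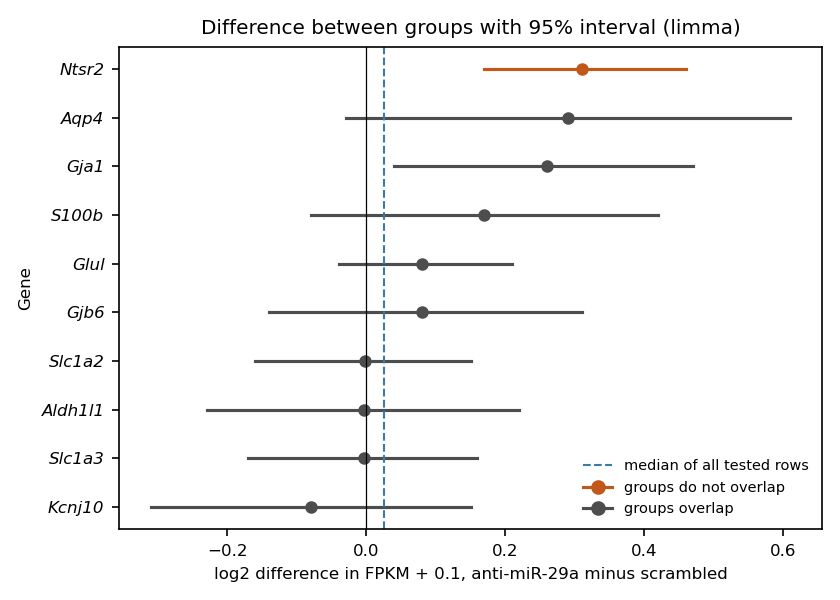
Log2 difference in FPKM + 0.1 (anti-miR-29a minus scrambled) for each of the 10 genes with its 95% interval from limma; the dashed line is the median of all tested rows, 0.026. The intervals of Ntsr2 and Gja1 lie above 0, and those of the other 8 genes include 0.

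As a list the 10 genes had 6 positive and 4 negative differences, compared with 56.6% positive among all tested rows. Their median was 0.084 log2 units, beside 0.026 for all tested rows. Leaving out anti-miR-29a replicate 2 gave a median of 0.032, leaving out scrambled replicate 4 gave 0.045, and leaving out scrambled replicate 1 gave 0.13. It was 0.011 under quantile normalization, with 5 positive differences.

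FPKM is scaled to transcript length, so levels of different genes can be set side by side. The annotation that gave the lengths is not stated, so the order holds only for the lengths used. In the scrambled libraries the order was Glul, Slc1a2, Slc1a3, Ntsr2, S100b, Gja1, Kcnj10, Aqp4, Aldh1l1 and Gjb6. The first 3 were apart from their neighbours in both groups, with no overlap of their ranges. In the scrambled group Ntsr2 overlapped with S100b, S100b with Gja1 and Gja1 with Kcnj10, while Kcnj10 and Aqp4 were apart. In the anti-miR-29a group the ranges of Ntsr2 and S100b no longer overlapped, nor did those of Gja1 and Kcnj10. Aldh1l1 and Gjb6 went the other way, apart in the scrambled group and overlapping in the anti-miR-29a group. The means of S100b and Gja1 changed order, from 45.1 and 43.0 FPKM to 51.1 and 51.4 FPKM. Aqp4 and Aldh1l1 overlapped in both groups.

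The 10 genes varied together between libraries, in ways that cut across the groups. All 45 pairs of genes had a positive Pearson correlation over the 8 libraries, with a median of 0.666, from 0.114 for Slc1a2 with Ntsr2 to 0.958 for Aqp4 with Glul. After the group means were taken out the median was 0.714, again with 45 positive pairs. These points share libraries and their scaling, so the values describe the libraries and carry no test. Relative to the scrambled mean, the median of the 10 genes was highest in anti-miR-29a replicate 2, at 0.287 log2 units. It stood at 0.124, -0.0447, 0.0169 and -0.111 in scrambled replicates 1 to 4, and at -0.086, 0.0317 and 0.109 in anti-miR-29a replicates 1, 3 and 4. Anti-miR-29a replicate 1 was thus near the lowest control, and the groups overlapped.

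**Figure D3:**
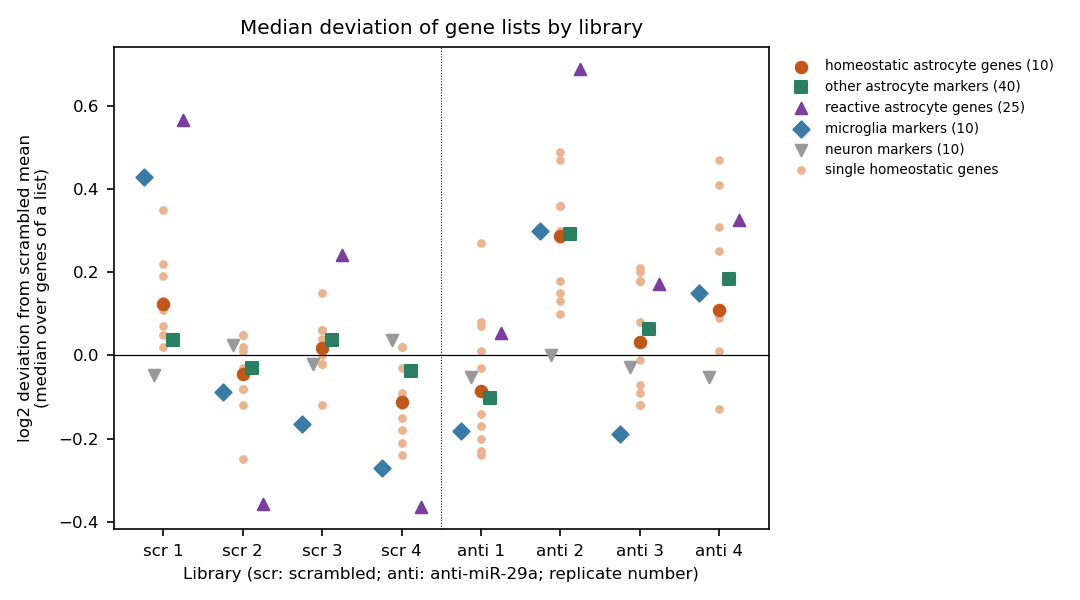
Median log2 deviation from the scrambled mean, by library, of the 10 homeostatic astrocyte genes (large circles; small points are the single genes) and of 4 other lists. The homeostatic genes and the other astrocyte markers are highest in anti-miR-29a replicate 2 (0.287 and 0.293), while neuron markers stay between -0.0525 and 0.0369.

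Other astrocyte markers showed the same order at both ends of the anti-miR-29a group. This list holds 40 further genes of astrocytes, and its median was 0.293 in anti-miR-29a replicate 2 and -0.102 in replicate 1, beside -0.0379 to 0.0369 in the scrambled libraries. Of its 40 members, 32 had positive and 8 negative differences, 0 passed after adjustment, and 9 were higher and 1 lower at an unadjusted p under 0.05 (limma). Among all tested rows these shares were 56.6% positive, 7.54% higher and 3.18% lower. The list median was 0.103, but 0.041 without anti-miR-29a replicate 2 and 0.20 without replicate 1. Its 3 most abundant members were Clu, Sparcl1 and Mt3. Clu, a secreted chaperone gene, read 578.1 ± 65.6 and 683.2 ± 75.0 FPKM, and Sparcl1, a secreted synapse-organising protein gene, read 509.3 ± 18.6 and 503.3 ± 41.1 FPKM. Mt3, a zinc-binding metallothionein gene, read 364.0 ± 26.4 and 445.0 ± 30.9 FPKM, with groups that did not overlap, and did not pass (limma, adjusted p = 0.2). Dio2, which activates thyroid hormone, and Ttyh1, a membrane protein gene, also had groups without overlap and are named after their values were seen. In all, 3 of the 40 markers were higher without overlap, as were 4.02% of all tested rows. Dio2 read 9.62 ± 0.620 and 15.8 ± 3.75 FPKM, and Ttyh1 read 139.5 ± 3.33 and 156.8 ± 8.69 FPKM. The gap in Dio2 was narrow, from 10.5 FPKM in scrambled replicate 1 to 10.6 FPKM in anti-miR-29a replicate 1.

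Set against the other astrocyte markers, the 10 genes did not all keep their place. This comparison, chosen after seeing the data, takes the median deviation of the 40 markers from each gene in each library. On this scale Ntsr2 was 0.20 log2 units higher in the anti-miR-29a libraries, at 0.13 to 0.37 against -0.06 to 0.03 in the scrambled libraries, again without overlap. Slc1a3 was 0.11 lower, at -0.16 to -0.07 against -0.06 to 0.08, a gap between the groups that is small beside their spread. The other 8 genes overlapped, with differences of -0.19 for Kcnj10, -0.11 for Slc1a2 and Aldh1l1, 0.18 for Aqp4 and 0.15 for Gja1 at the ends. The differences are values with no test.

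Ratios of genes with like roles were compared within each library, for 3 pairs, since a ratio does not depend on how a library was scaled. The Aqp4 to Kcnj10 ratio of FPKM was 0.511, 0.368, 0.459 and 0.495 in the scrambled and 0.537, 0.576, 0.557 and 0.692 in the anti-miR-29a libraries. All anti-miR-29a libraries were above all scrambled ones. The log2 ratio was -1.13 ± 0.212 and -0.76 ± 0.162 (SD, n = 4 per group), a difference of 0.37 that did not pass over the 3 pairs (exact two-sided permutation p = 0.0286, adjusted p = 0.0857, the smallest that a single pair of 3 can reach here). The difference was 0.27 without scrambled replicate 2 and 0.29 without anti-miR-29a replicate 4. A ratio shows unequal change of the 2 genes and not which of them changed.

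The Gja1 to Gjb6 ratio of FPKM was 3.12, 2.79, 2.84 and 2.99 in the scrambled and 2.95, 3.07, 3.62 and 3.66 in the anti-miR-29a libraries. Anti-miR-29a replicates 3 and 4 were above all controls, and replicates 1 and 2 lay among them. The log2 difference was 0.17 (exact permutation p = 0.143, adjusted p = 0.214). The Slc1a3 to Slc1a2 ratio ranged from 0.373 to 0.435 in the scrambled and from 0.384 to 0.416 in the anti-miR-29a libraries, with a log2 difference of -0.0025 (exact permutation p = 1, adjusted p = 1). The balance of the glutamate transporters therefore differed by less than the spread between libraries.

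**Figure D4:**
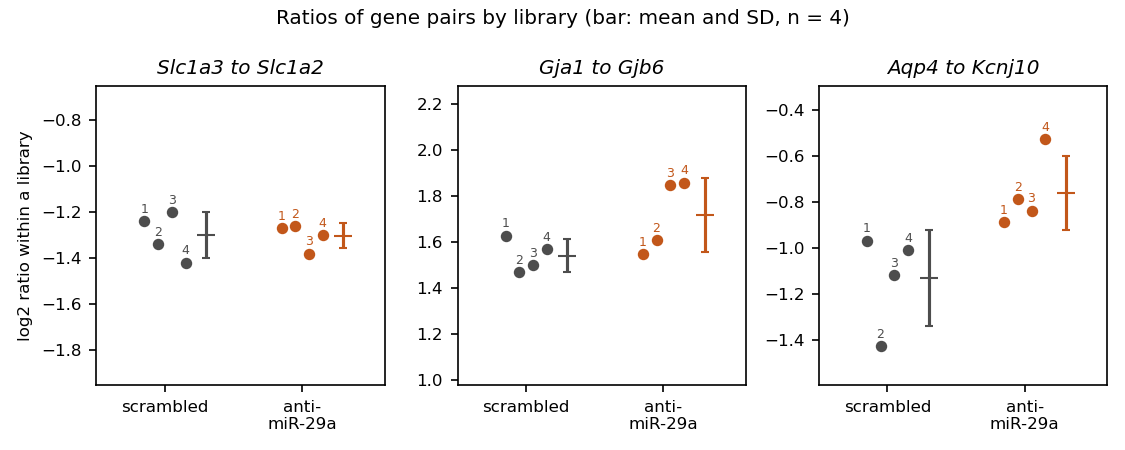
Log2 ratio of FPKM + 0.1 within each library for 3 gene pairs (axes do not start at 0 and each spans the same number of log2 units); points are libraries with their replicate number, and bars give the mean and SD. The Aqp4 to Kcnj10 ratio is the one whose groups do not overlap, at -1.43 to -0.97 against -0.89 to -0.53.

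Further genes of the same functions did not pass either. Of 17 genes that handle glutamate, glutamine and GABA, all 17 were tested, 9 had positive and 8 negative differences with a median of 0.077, and 0 passed (2 higher and 0 lower at an unadjusted p under 0.05). Among their most abundant members were the aspartate aminotransferase genes Got1 and Got2. Got1 read 130.3 ± 2.81 and 126.4 ± 9.21 FPKM, and Got2 read 96.5 ± 3.76 and 104.5 ± 5.19 FPKM. The median of this list was -0.0048 among members with a mean of at least 5 FPKM, so its sign depends on the members of low level. It was 0.045 to 0.051 when scrambled replicate 4 or anti-miR-29a replicate 2, 3 or 4 was left out, and 0.030 once the trend on length and GC content was removed. All tested rows were 56.6% positive and 7.54% higher.

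Of 20 genes of endfoot water and ion handling, 18 passed the filter and Sntb1 and Trpv4 did not. Among the 18 tested, 10 had positive and 8 negative differences, the median was 0.075, and 0 passed (4 higher and 0 lower at an unadjusted p under 0.05, beside 7.54% and 3.18% of all tested rows). Leaving out anti-miR-29a replicate 2 gave a median of 0.014, and leaving out scrambled replicate 2 gave 0.024. Among the most abundant were Atp1b2, a sodium pump subunit gene that astrocytes express strongly, and Fxyd7, a pump regulator gene. Atp1b2 read 327.5, 319.5, 350.9 and 308.4 FPKM in the scrambled and 365.1, 401.7, 361.3 and 376.9 FPKM in the anti-miR-29a libraries. Its anti-miR-29a libraries all lay above the scrambled ones, as in 4.02% of all tested rows. The log2 difference of 0.20 did not pass (limma, adjusted p = 0.232). Fxyd7 read 117.7 ± 5.65 and 115.5 ± 3.80 FPKM.

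Of 12 other connexin, pannexin and junction scaffold genes, 11 were tested and 0 passed. Of the 11, 6 had positive and 5 negative differences, where 56.6% of all tested rows were positive. At an unadjusted p under 0.05 limma counted 2 higher and 0 lower, beside 7.54% and 3.18% of all tested rows. The median of this list was 0.060, and its sign was not stable. Leaving out scrambled replicate 1 gave 0.20, and leaving out scrambled replicate 4 gave -0.037. It was -0.012 over the 5 members that averaged 5 FPKM or more, and -0.017 once the trend on length and GC content was removed. Panx2 read 33.5 ± 0.748 and 33.3 ± 2.62 FPKM, Tjp1 13.7 ± 1.40 and 13.1 ± 1.49 FPKM, and Gjc3, a connexin gene of oligodendrocytes, 9.23 ± 2.33 and 9.80 ± 0.907 FPKM. In these 3 genes the groups of libraries overlapped.

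Reactive astrocyte genes were spread widely between libraries, with medians of -0.365 to 0.565 log2 units in the scrambled group, beside -0.111 to 0.124 for the homeostatic genes. Of 30 listed, 25 were tested and 0 passed (4 higher and 0 lower at an unadjusted p under 0.05, beside 7.54% and 3.18% of all tested rows). Of the 25, 20 had positive and 5 negative differences with a median of 0.30, where 56.6% of all tested rows were positive. Leaving out scrambled replicate 2 gave a median of 0.16 with 17 positive differences, and leaving out anti-miR-29a replicate 2 gave 0.20 with 19. Gfap, the filament gene that rises in reactive astrocytes, was at 109.4 to 248.4 FPKM in the scrambled and 163.4 to 392.3 FPKM in the anti-miR-29a libraries. The groups overlapped in Gfap, which did not pass (limma, unadjusted p = 0.0466, adjusted p = 0.457). The summed level of the reactive genes was 240.4 to 497.4 FPKM in the scrambled and 348.6 to 662.2 FPKM in the anti-miR-29a libraries. It was highest in anti-miR-29a replicate 2, as for the homeostatic genes, and Gfap alone was 392.3 of the 662.2 FPKM in that library. Ptx3, Cd109 and B3gnt5 were listed at 0 in at least 1 library.

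Markers of other cell types in the tissue were measured beside these values, and their part in the results was not tested. None of the 10 neuron markers passed (limma), and their summed level was 3868.8 to 4123.7 FPKM in the scrambled and 3834.1 to 4084.9 FPKM in the anti-miR-29a libraries. Of these markers 4 had positive and 6 negative differences, with a median of -0.012 log2 units. Syt1 (a synaptic vesicle calcium sensor gene) and Gad1 (a GABA synthesis enzyme gene) are named after their values were seen. In these 2 of the 10, all anti-miR-29a libraries lay below all scrambled ones, as in 2.29% of all tested rows. The groups of the other neuron markers overlapped. Among these, the most abundant were Snap25, Camk2a and Slc17a7, with log2 differences of -0.0081, -0.04 and 0.00094. Syt1 read 339.7 ± 14.4 and 317.4 ± 9.52 FPKM (limma, unadjusted p = 0.0417, adjusted p = 0.444), and Gad1 read 63.5 ± 2.53 and 60.3 ± 1.31 FPKM. Microglia markers summed to 229.8 to 365.9 and 279.1 to 367.9 FPKM, with scrambled replicate 1 and anti-miR-29a replicate 2 highest, the same libraries in which the homeostatic genes were highest in each group. The summed levels of oligodendrocyte precursor markers and of reactive astrocyte genes were highest in these libraries too. Oligodendrocyte markers summed to 844.1 to 1723.5 and 939.1 to 1252.8 FPKM, with scrambled replicate 1 highest. In this list 10 of 10 had a negative difference, where 56.6% of all tested rows were positive. After adjustment 0 passed, and in all 10 the groups overlapped. At an unadjusted p under 0.05 limma counted 0 higher and 1 lower, beside 7.54% and 3.18% of all tested rows. The list median ran from -0.49 to 0.493 log2 units within the scrambled group, and from -0.33 to 0.107 in the anti-miR-29a group. Markers of oligodendrocyte precursors summed to 62.9 to 79.6 and 64.3 to 79.4 FPKM, and those of endothelium to 78.8 to 105.6 and 96.0 to 105.4 FPKM. Meningeal fibroblast markers summed to 344.4 to 541.0 FPKM in the scrambled and 505.0 to 790.5 FPKM in the anti-miR-29a libraries. Most of this sum was 1 gene, Ptgds, at 307.4 to 477.3 and 448.8 to 685.8 FPKM. In this list 9 of 9 tested had a positive difference, with a median of 0.73 log2 units. Of these 9, 6 were higher at an unadjusted p under 0.05 and 0 passed after adjustment (limma). Among all tested rows 56.6% were positive, 7.54% were higher at that threshold and 4.02% were higher without overlap. Igfbp2, a growth factor binding protein gene, had groups without overlap at 14.7 to 23.1 and 23.3 to 49.7 FPKM. No defining marker of these types was listed at 0 in any library except 1, Lum, a fibroblast gene below the filter.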

How the data were processed

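The deposited table holds FPKM for 8 libraries, 4 per group. Per the submitters' processing notes, the authors used CASAVA 1.8.2, Bowtie and Cuffnorm with mm10. The sources used here do not state the order of steps, the annotation, the Cuffnorm scaling or read counts, so depth is unknown. Each library listed 12538 to 12769 rows at 1 FPKM or more.

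Rows with a mean of at least 0.5 FPKM (13912) entered limma 3.58.1 (R 4.3.3) on the log2(FPKM + 0.1) scale, in a model of group alone with an intensity trend of the variance. Fold changes on this scale understate the change of low genes. All tests were two-sided, and limma p-values were adjusted by Benjamini-Hochberg over the 13912 rows. The fit was tested on simulated data. Single genes and pair ratios had an exact permutation test over 70 relabellings. Gene models were GENCODE M21.

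The members and lists were chosen with earlier results of these data known. Named genes are the 10 members, the 3 most abundant tested genes of each list, any list gene that passed (none did), and the 5 genes of most similar pattern. Some list genes that this rule names are not reported here. Alternatives were other pseudocounts, filters and scalings, removal of a trend on transcript length and GC content, sample weights, robust empirical Bayes, a replicate block and each library left out. Added after seeing the data was the level relative to other astrocyte markers.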

Additional observations from a re-analysis of the deposited data

Results flagged for a closer look

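Within a group of 4 libraries, a library was set apart when its gap to the nearest other exceeded Dixon's 95% critical share of the group's range. Of 102 groups checked, 6 met this, and chance gives about 1 in 20. Among the homeostatic genes it met Aldh1l1, where scrambled replicate 2 read 16.3 FPKM against 17.5 to 17.7 in the other controls. Got1 read 126.1 FPKM in scrambled replicate 1 against 131.5 to 132.0 in the others. Panx2 read 34.6 FPKM in scrambled replicate 3 against 33.0 to 33.2. Slco1a4, a transporter gene of endothelium, read 10.8 FPKM in scrambled replicate 1 against 7.69 to 8.11. C1qb, a complement gene of microglia, read 96.3 FPKM in anti-miR-29a replicate 2 against 74.9 to 76.8. Igf2, a growth factor gene of the meninges, read 14.1 FPKM in anti-miR-29a replicate 3 against 25.2 to 27.5.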

How the results depend on the processing

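None of the 10 homeostatic genes passed under any of the 18 alternatives, and Aqp4, Gja1, Gjb6, Ntsr2 and S100b stayed positive and Kcnj10 negative in all of them. Gjb6 came to 0.0051 and S100b to 0.079 with the trend on length and GC content taken out, and the ranges with 1 library left out were 0.014 to 0.15 for Gjb6 and 0.11 to 0.28 for S100b. At an unadjusted p under 0.05 limma counted 1 to 4 of the 10 over these settings. The number of rows called was 2, and it was 1 with no filter and with a mean of at least 5 FPKM, 10 with robust empirical Bayes, 0 with the replicate block (1476 at an unadjusted p under 0.05) and 1 to 3 with 1 library left out. Same-numbered libraries did not deviate together (correlations of -0.106 to 0.0143), so the numbers are not taken as pairs, and with the block Ntsr2 had an adjusted p of 0.331. Differences near 0 changed sign. Glul was -0.032 under quantile normalization, removing the trend on length and GC content put Slc1a2 at 0.10, and with array weights Slc1a2, Slc1a3 and Aldh1l1 were 0.022, 0.033 and 0.014. With 1 library left out Slc1a2 ranged from -0.042 to 0.064, Slc1a3 from -0.050 to 0.051 and Aldh1l1 from -0.097 to 0.075. The log2 difference of the Slc1a3 to Slc1a2 ratio ranged from -0.0426 to 0.0307 with 1 library left out. The cause of these changes was not tested. Depth per library is unknown, and 4 libraries per group limit the precision.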

Other observations

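The 5 genes whose pattern over the 8 libraries was most like the mean of the standardized homeostatic genes were searched among 8291 other rows with a mean of at least 5 FPKM. They were Tmbim6, Grn, Abhd4, Rassf2 and Tyrobp, with Pearson correlations of 0.975, 0.970, 0.952, 0.948 and 0.943 over 8 libraries, which share depth and scaling. Tmbim6, an inhibitor of cell death in the endoplasmic reticulum, read 124.9 ± 8.30 FPKM in the scrambled group and 130.4 ± 8.91 in the other. Grn, the progranulin gene, read 27.3 ± 4.67 and 33.8 ± 7.51 FPKM, and Tyrobp, a signalling adaptor of microglia, 32.1 ± 6.91 and 36.6 ± 9.10 FPKM. Abhd4, a lipid hydrolase gene, read 22.5 ± 3.17 and 25.4 ± 4.21 FPKM, and Rassf2 11.9 ± 0.889 and 12.7 ± 0.890 FPKM. In all 5 the groups of libraries overlapped.

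Among genes without overlap that are named after their values were seen, Slc38a2, a glutamine transporter gene, was at 14.4 to 17.0 FPKM in the scrambled group, just under the 17.0 to 17.6 of the anti-miR-29a group. Panx1, a large-pore channel gene, was at 3.85 to 4.97 and 5.04 to 5.17 FPKM. Of all tested rows, 4.02% were higher without overlap.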
